A study of Mus musculus with 8 samples.

Results

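The glucocorticoid, FoxO and muscle atrophy pathway was examined through 10 genes, matched by symbol in a deposited table of 24033 genes. All 10 were in the table: the glucocorticoid receptor gene Nr3c1, the receptor targets Fkbp5, Tsc22d3, Zbtb16 and Ddit4, the transcription factors Foxo1 and Foxo3, the ubiquitin ligases Fbxo32 and Trim63, and the growth inhibitor Mstn. RNA came from soleus, a slow oxidative muscle of the hindlimb, in mice aged 2 months. The 4 K15-SKO mice carried 1 Myogenin-Cre copy together with floxed alleles of Klf15 (Myogenin-Cre/+;K15F/F). The 4 MyoCre mice carried the Cre copy alone (Myogenin-Cre/+), so that Cre was present in both groups. The myogenin promoter is active in differentiating skeletal muscle, and other cells of the muscle are expected to keep Klf15. The sources used here do not say whether the mice were littermates or how many muscles made up a sample, so p-values measure the spread between these samples.

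Glucocorticoids bind the receptor encoded by Nr3c1, which then enters the nucleus and switches on target genes. In muscle these include Klf15 itself and genes that slow growth and favour protein breakdown. FoxO factors, which insulin and growth factor signalling keep out of the nucleus through AKT, activate the ligase genes Fbxo32 (atrogin-1) and Trim63 (MuRF1), whose products mark muscle proteins for the proteasome. KLF15 is known from work in rodents as a factor that can raise both ligase genes downstream of the receptor. The comparison asks whether the pathway differs in soleus when Klf15 is deleted in muscle fibres.

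Promoter sequence is shown for the member with the widest spread between animals among those tested, Trim63, and for the member with the lowest level, Mstn. Both are the 250 bases before the start site on the plus strand of GRCm38.p6, from RefSeq, at chr4:134314870-134315119 for Trim63 and chr1:53061390-53061639 for Mstn. Capitals in the Trim63 sequence mark a receptor half-site (AGAACA, here read on the other strand) joined to a FoxO motif (GTAAACA, also on the other strand), and then a TATA box (TATAAA). Capitals in the Mstn sequence mark a TATA box.
Trim63: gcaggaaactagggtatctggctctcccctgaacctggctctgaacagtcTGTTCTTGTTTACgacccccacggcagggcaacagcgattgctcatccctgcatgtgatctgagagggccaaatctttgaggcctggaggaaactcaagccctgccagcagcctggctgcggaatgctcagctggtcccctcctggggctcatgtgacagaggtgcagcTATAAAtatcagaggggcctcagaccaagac
Mstn: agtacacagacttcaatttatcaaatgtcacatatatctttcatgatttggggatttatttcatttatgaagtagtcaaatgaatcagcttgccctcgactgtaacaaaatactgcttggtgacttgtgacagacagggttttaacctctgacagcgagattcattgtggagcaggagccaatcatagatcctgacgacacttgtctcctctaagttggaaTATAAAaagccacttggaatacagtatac

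In Trim63 the half-site covered positions -200 to -195 and the FoxO motif positions -194 to -188, counted with the start site as 0, so that they touch without overlap. Windows around the start site (the 250 bases before it and a short stretch after it) were found for 7 of the 10 genes, 9 windows in all since Tsc22d3 had 3. Fbxo32, Nr3c1 and Zbtb16 had no window. On either strand a half-site was present in 2 of the 9 windows, those of Trim63 and Tsc22d3, against 19.0% of 32851 windows of all genes. The FoxO motif was present in the Trim63 window alone, against 3.65% of all windows, and both motifs shared a window in 0.877%. The joined run TGTTCTTGTTTAC, searched for after the sequence had been read, occurred in 1 of the 32851 windows, that of Trim63. As an exact match, the full receptor palindrome (a half-site and its reverse complement with 3 bases between) was in none of the 9 windows and in 0.00913% of all. In Trim63, however, the letters TGAACA stand 3 bases before the half-site TGTTCT and differ from AGAACA only in the first letter. The exact search did not count such near matches in any window. The CACCC box of Kruppel-like factors (CCNCNCCC, whose matches can overlap each other) was in windows of 5 genes, Foxo1, Foxo3, Ddit4, Fkbp5 and Tsc22d3, with 14 matches, and in 49.5% of all windows. A match describes these letters only.

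The targeted gene Klf15 had 15.7, 19.3, 16.7 and 13.1 FPKM in K15-SKO muscle, against 44.5, 49.8, 49.1 and 22.8 FPKM in MyoCre muscle, and the groups did not overlap. FPKM counts fragments per kilobase of transcript, scaled to the mapped total of the library, a unit inferred for this table. Klf15 was lower in K15-SKO muscle by a log2 fold change of -1.28 (SE 0.25, limma adjusted p = 0.0315; two-sided exact permutation p = 0.0286, the smallest that 70 assignments allow). The limma call ended under rescaling and when K15-SKO replicate 1, 3 or 4 or MyoCre replicate 1, 2 or 3 was left out (adjusted p = 0.0534 to 0.199), while the log2 fold change stayed between -1.55 and -1.15. The libraries rested on an estimated 8430000 to 22800000 fragments. K15-SKO replicate 3 stood apart, with Rn7sk, a small nuclear RNA, taking 14.1% of all FPKM there and 8.67% to 10.5% in the other libraries, the lowest median-of-ratios scaling factor (0.801 against 0.967 to 1.16) and the highest sum of erythroid markers (2034 FPKM against 284.0 to 577.4). MyoCre replicate 2 was the deepest library and the only male, by its Y-linked genes and Xist. The slow-fibre myosin gene Myh7 had 786.1 to 2082 FPKM in K15-SKO and 669.2 to 2280 FPKM in MyoCre muscle, and the T cell gene Cd3e was listed at 0 in all libraries except K15-SKO replicate 2.

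None of the 10 genes passed the test between the genotypes. The 9 genes whose mean over all libraries reached 1 FPKM were tested, and 0 of these 9 passed an adjusted p of 0.05 in limma, where 0.55% of the 12535 genes tested did (all directions), and 0 had an unadjusted p under 0.05, beside 3.98% of all tested genes with values in both genotypes. Values of the genotypes overlapped for all 9, whereas 3.35% of the genes tested had groups without overlap (2.72% lower and 0.63% higher in K15-SKO muscle). Of the 9 log2 fold changes, 8 were negative and 1 positive, with a median of -0.08 beside -0.12 for all genes tested, and 6 lay above that median. Lower and higher members are therefore read against this median of -0.12, which median-of-ratios scaling moved to 0.00. Much of it came with K15-SKO replicate 3. The median of all genes was -0.04 without that library, and -0.17 to -0.08 when any other library was left out. Mstn, the tenth gene, did not reach the minimum mean. The plot of FPKM by library shows all 80 values, and the plot of log2 fold changes shows how wide a difference each interval still allows.

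**Figure D1:**
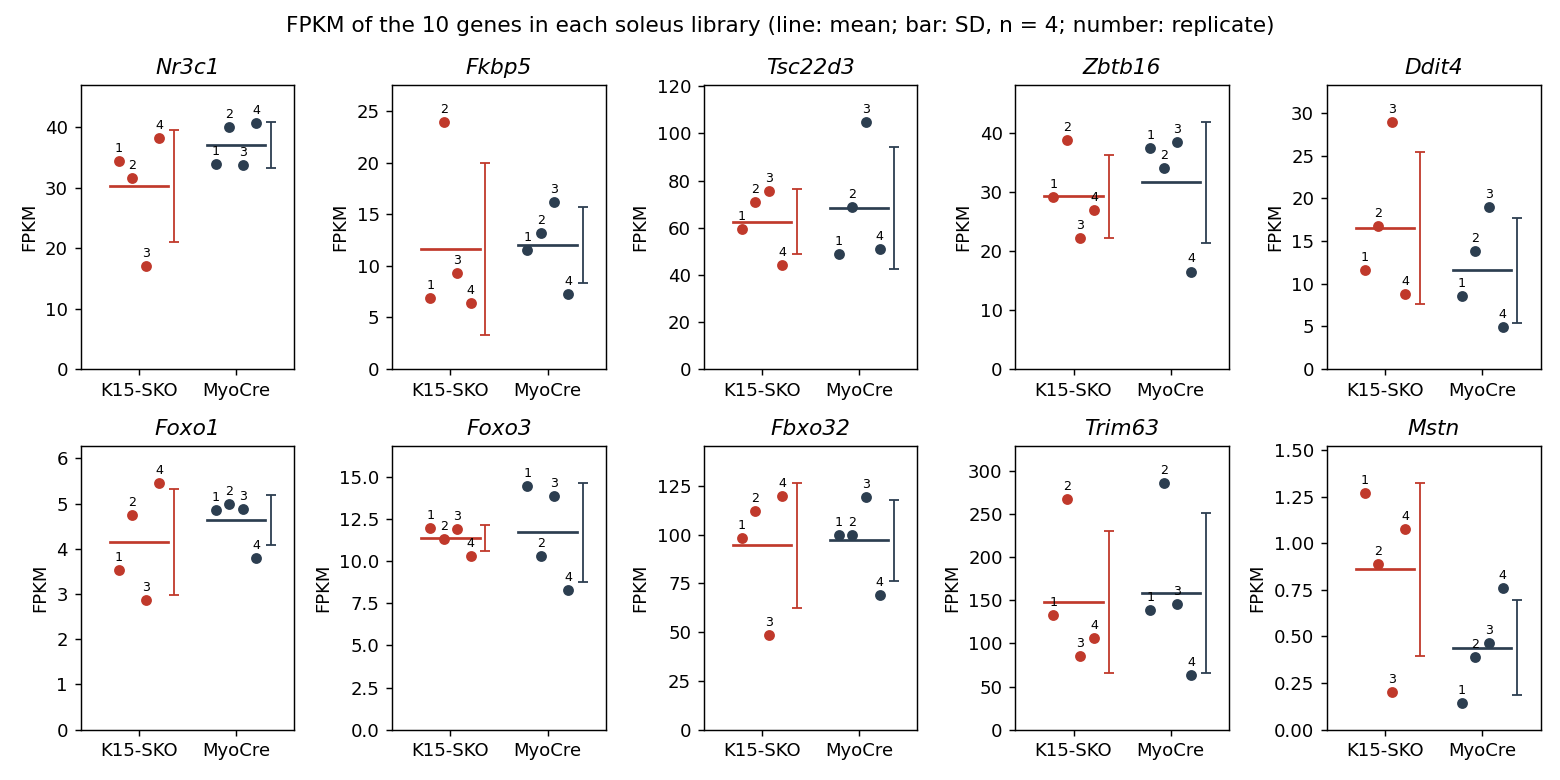
FPKM (vertical axis, from 0, a scale of its own for each gene) of the 10 genes in the K15-SKO and MyoCre libraries; dots are libraries numbered by replicate, lines are means and bars are SD (n = 4 each). The 2 groups of dots overlap in every panel, and K15-SKO replicate 3 and MyoCre replicate 4 lie at the bottom of their groups for 6 and 7 of the 10 genes.

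In both genotypes the ligase genes had the highest levels and Mstn the lowest, and FPKM, being per length, allows levels to be set beside each other. Trim63 averaged 148.0 ± 82.2 FPKM in K15-SKO and 158.5 ± 93.0 FPKM in MyoCre muscle (SD, n = 4 each, as for all means here). Next came Fbxo32 (94.5 ± 32.0 and 96.9 ± 20.8 FPKM) and Tsc22d3 (62.6 ± 13.9 and 68.2 ± 26.0 FPKM), in the same order of genotypes. Nr3c1 (30.3 ± 9.30 and 37.1 ± 3.79 FPKM) and Zbtb16 (29.3 ± 7.03 and 31.7 ± 10.3 FPKM) were neighbours within their spread. So were Ddit4 (16.5 ± 8.94 and 11.5 ± 6.14 FPKM), Fkbp5 (11.6 ± 8.31 and 12.01 ± 3.72 FPKM) and Foxo3 (11.4 ± 0.79 and 11.7 ± 2.93 FPKM). Foxo1 (4.16 ± 1.17 and 4.64 ± 0.56 FPKM) and Mstn (0.86 ± 0.47 and 0.44 ± 0.25 FPKM) closed the order. Trim63 and Fbxo32 also overlapped each other. Within a library, Trim63 was below Fbxo32 in K15-SKO replicate 4 (106.5 against 119.7 FPKM) and in MyoCre replicate 4 (63.1 against 69.1 FPKM). It was above Fbxo32 in all the other libraries.

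The receptor gene Nr3c1 (ENSMUSG00000024431, chromosome 18, 39410545 to 39519421, minus strand of mm10 in GENCODE M21, as for all positions here) was close to even across the mice apart from 1 library. It had 34.4, 31.6, 17.0 and 38.2 FPKM in K15-SKO muscle, against 33.9, 40.0, 33.7 and 40.7 FPKM in MyoCre muscle. K15-SKO replicate 3, with 17.0 FPKM, was the low value, and the other 3 K15-SKO libraries lay inside or just below the MyoCre range. The log2 fold change was -0.34 (95% interval -0.85 to 0.17, limma adjusted p = 0.957), and -0.09 without that library. The part of that library's Rn7sk and erythroid content in the low value was not tested.

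Fkbp5 encodes a co-chaperone that lowers the receptor's affinity for hormone and is itself strongly induced by the receptor. Its gene lies on chromosome 17 from 28399094 to 28517527 on the minus strand. It had 6.89, 24.0, 9.34 and 6.37 FPKM in K15-SKO muscle, against 11.5, 13.1, 16.1 and 7.23 FPKM in MyoCre muscle. K15-SKO replicate 2 was the highest of all 8 libraries, and the other 3 K15-SKO libraries were below 3 of the 4 MyoCre libraries. The log2 fold change was -0.20 (interval -1.08 to 0.69, limma adjusted p = 0.957). Leaving out K15-SKO replicate 2 gave -0.60 (adjusted p = 0.818) and leaving out K15-SKO replicate 4 gave 0.01, so single libraries set its value.

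Tsc22d3 (GILZ, a leucine zipper protein through which glucocorticoids restrain inflammation; X chromosome, 140539528 to 140600659, minus strand) had 59.5, 70.7, 75.7 and 44.3 FPKM in K15-SKO muscle, against 48.8, 68.6, 104.9 and 50.7 FPKM in MyoCre muscle. MyoCre replicate 3 had the highest value, above every K15-SKO library, and K15-SKO replicate 4 had the lowest, below every MyoCre library. Its log2 fold change was -0.08 (interval -0.63 to 0.47, limma adjusted p = 0.970) and lay 0.04 above the median of all genes, against 0.05 above it under median-of-ratios scaling, where the log2 fold change itself was 0.05.

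Zbtb16 (PLZF, a zinc finger repressor used as a sensitive readout of the receptor; chromosome 9, 48654297 to 48836222, minus strand) had 29.2, 38.9, 22.2 and 27.0 FPKM in K15-SKO muscle, against 37.5, 34.1, 38.5 and 16.5 FPKM in MyoCre muscle. MyoCre replicate 4 was the lowest of all 8, below every K15-SKO library. The log2 fold change was -0.06 (interval -0.64 to 0.51, limma adjusted p = 0.979), which was 0.06 above the median of all genes. Under median-of-ratios scaling it was 0.07, also 0.07 above that median.

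Ddit4 (REDD1, an inhibitor of the growth kinase complex mTORC1; chromosome 10, 59949669 to 59951834, minus strand) was the only tested member with a positive log2 fold change. It had 11.5, 16.7, 29.0 and 8.75 FPKM in K15-SKO muscle, against 8.54, 13.8, 19.0 and 4.91 FPKM in MyoCre muscle. The highest library of each genotype was its replicate 3 and the lowest its replicate 4, and the ranges overlapped over most of their length. The log2 fold change of 0.51 (interval -0.55 to 1.58) missed the threshold (limma adjusted p = 0.957). It was 0.20 without K15-SKO replicate 3 and 0.18 without MyoCre replicate 4, and those libraries held the extreme values. It was 0.76 without K15-SKO replicate 4 and 0.80 without MyoCre replicate 3.

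Foxo1 (chromosome 3, 52268336 to 52353221, plus strand) and Foxo3 (chromosome 10, 42181841 to 42276755, minus strand) encode the FoxO factors best known for driving muscle atrophy. Foxo1 had 3.54, 4.75, 2.87 and 5.46 FPKM in K15-SKO muscle, against 4.85, 5.003, 4.88 and 3.81 FPKM in MyoCre muscle. The K15-SKO values lay on both sides of the MyoCre range (log2 fold change -0.17, interval -0.61 to 0.27, limma adjusted p = 0.957). Leaving out 1 library moved that value to between -0.30 (without K15-SKO replicate 4) and -0.03 (without K15-SKO replicate 3). A transcript model on the same strand, Gm38034, overlaps Foxo1 and averaged 6.14 FPKM, so reads of the 2 may be shared between them. Foxo3 had 11.97, 11.3, 11.9 and 10.3 FPKM in K15-SKO muscle, against 14.5, 10.3, 13.8 and 8.28 FPKM in MyoCre muscle. Its K15-SKO values all fell inside the MyoCre range, and it had the narrowest interval of the 9 genes (log2 fold change -0.01, interval -0.44 to 0.42, limma adjusted p = 0.996). On the fold scale that interval runs from 0.738 to 1.33, and the log2 fold change lay 0.11 above the median of all genes, or 0.12 above it with median-of-ratios scaling.

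Fbxo32, which encodes the substrate receptor of an SCF ligase (chromosome 15, 58175879 to 58214932, minus strand), had 98.0, 111.9, 48.4 and 119.7 FPKM in K15-SKO muscle, against 99.8, 99.5, 119.3 and 69.1 FPKM in MyoCre muscle. The low libraries were K15-SKO replicate 3 and MyoCre replicate 4, and the other 6 lay between 98.0 and 119.7 FPKM. Its log2 fold change was -0.09 (interval -0.69 to 0.51, limma adjusted p = 0.970) and 0.20 without K15-SKO replicate 3.

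Trim63, a RING ligase of the sarcomere (chromosome 4, 134315120 to 134329629, plus strand), had 132.9, 267.7, 84.9 and 106.5 FPKM in K15-SKO muscle, against 138.9, 286.2, 145.7 and 63.1 FPKM in MyoCre muscle. Replicate 2 of each genotype was far above the rest and MyoCre replicate 4 was the lowest. The highest library was 4.53 times the lowest. The log2 fold change of -0.05 (limma adjusted p = 0.9905) had the widest interval of the 9 genes, -1.21 to 1.12, or 0.431-fold to 2.18-fold. That interval is not adjusted for the number of genes tested, so it does not give the size of change that would have passed the threshold. Without MyoCre replicate 2 the log2 fold change was 0.30, and without MyoCre replicate 4 it was -0.42. Summed markers of muscle fibres, of which 13 were in the table, were lowest in K15-SKO replicate 4 (19326 FPKM), which was not the lowest K15-SKO library for Trim63, and in MyoCre replicate 4 (19069 FPKM), which was the lowest MyoCre library for it, against 21910 to 39093 FPKM in the other 6 libraries. Their part in the Trim63 values was not tested.

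Mstn, the secreted myostatin that limits muscle mass (chromosome 1, 53061640 to 53068079, plus strand), was scarce in soleus. It had 1.27, 0.89, 0.20 and 1.075 FPKM in K15-SKO muscle, against 0.14, 0.39, 0.47 and 0.76 FPKM in MyoCre muscle. K15-SKO replicate 3 was below 3 of the MyoCre libraries, and the other 3 K15-SKO libraries were above all of them. The means stood at a ratio of 1.95, K15-SKO over MyoCre, with p = 0.171 in the exact permutation test (two-sided, on FPKM). Fitted without the minimum mean, its log2 fold change on the log2(FPKM + 0.5) scale was 0.49 (interval -0.19 to 1.18, limma adjusted p = 0.921). These values rest on an estimated 34.7 fragments at most, in K15-SKO replicate 1, and 3.39 at least, in MyoCre replicate 1, against 92.2 to 15800 fragments for the other 9 genes. Leaving out 1 library gave 0.32 (without MyoCre replicate 1) to 0.78 (without K15-SKO replicate 3), with 0.34 without K15-SKO replicate 1, and a pseudocount of 1 gave 0.35 where one of 0.1 gave 0.76.

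**Figure D2:**
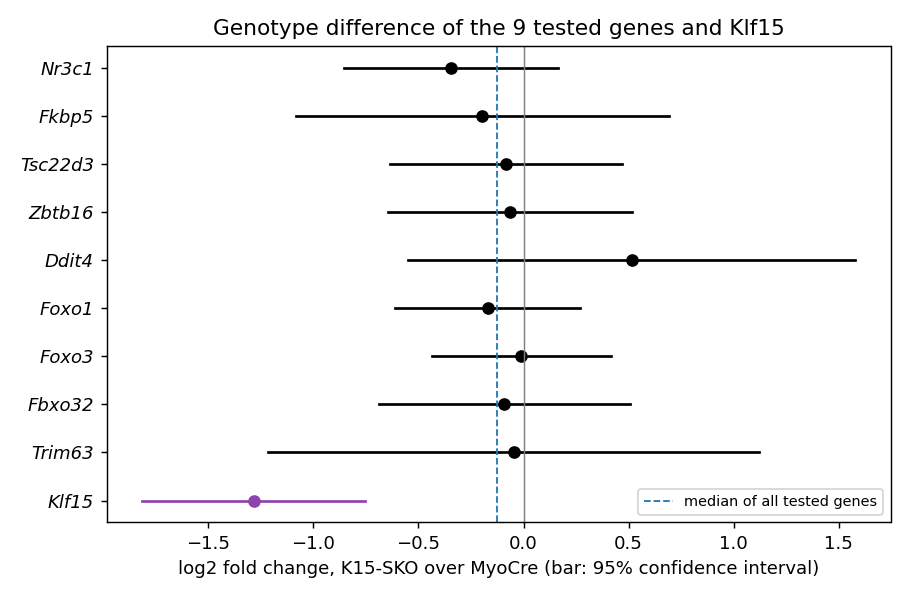
Log2 fold change, K15-SKO over MyoCre (horizontal axis), of the 9 tested genes and of Klf15, with 95% confidence intervals from limma; the dashed line is the median of all genes tested, -0.12. The interval of Klf15 (-1.81 to -0.75) lies left of 0, and those of the 9 genes cross 0, from the narrow Foxo3 to the wide Trim63.

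The spread between mice of a genotype was wide for the receptor targets and ligases and ordinary for the FoxO genes. Pooled over the genotypes, the SD on the log2 scale was 0.81 for Trim63, 0.77 for Ddit4 and 0.68 for Fkbp5, above 97.0%, 96.8% and 96.0% of the genes tested, whose median was 0.29. Fbxo32, Zbtb16 and Tsc22d3 followed with 0.48, 0.46 and 0.43, and Nr3c1 with 0.38. Foxo1 (0.29) and Foxo3 (0.27) ranked at the 48.3 and 40.8 percentiles. These percentiles describe the 8 libraries and were not tested.

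**Figure D3:**
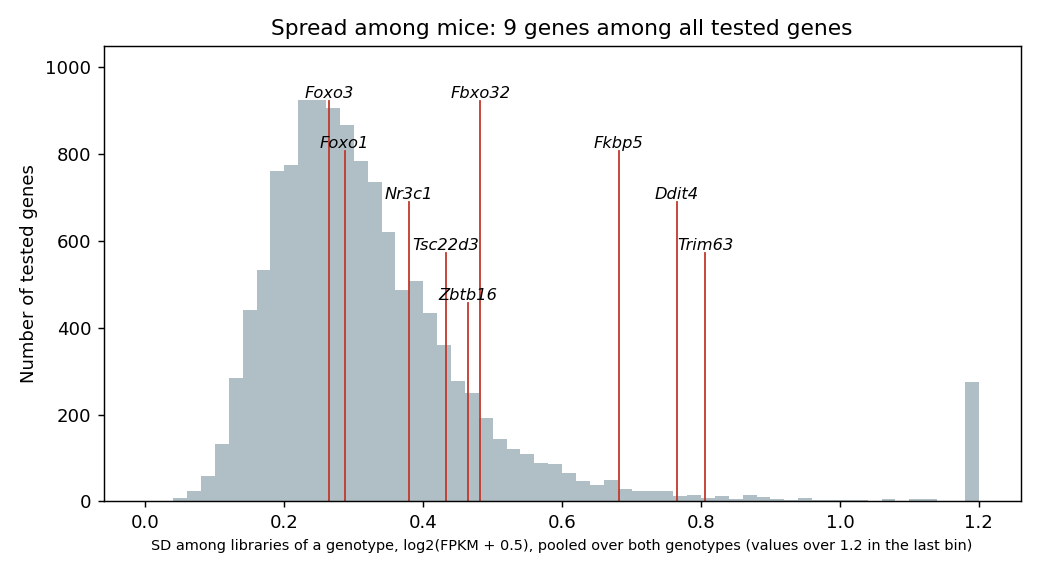
Number of genes (vertical axis) by SD among libraries of a genotype on the log2(FPKM + 0.5) scale (horizontal axis, values over 1.2 in the last bin) for the 12535 genes tested; red lines mark the 9 genes. Foxo3 and Foxo1 stand near the middle of the histogram, while Fkbp5, Ddit4 and Trim63 stand in its right tail at 0.68 to 0.81.

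Some members were high in the same libraries and others ran opposite to each other, with 31 of the 45 pairs of the 10 genes positive and 14 negative, and 0 passing after adjustment. Among the 45 pairs of the 10 genes the strongest Pearson correlation over the 8 libraries was that of Foxo1 with Fbxo32, with Pearson r = 0.87 (exact permutation p = 0.0096, adjusted p = 0.239 over the 45) and Spearman rho = 0.81 (exact permutation p = 0.0218, adjusted p = 0.314). Without the libraries farthest from the Foxo1 median, K15-SKO replicates 1 and 3, r was 0.90. MyoCre replicate 4, the lowest MyoCre library for both genes, stayed in, at -0.16 for Foxo1 and -0.41 for Fbxo32 relative to their log2 means. How far the 0.90 rests on that library was not tested. Zbtb16 with Trim63 gave r = 0.83 (exact permutation p = 0.0106, adjusted p = 0.239) and rho = 0.86 (exact permutation p = 0.0107, adjusted p = 0.241), with r = 0.54 without K15-SKO replicate 3 and MyoCre replicate 4, on which it largely rested. Tsc22d3 with Ddit4 gave r = 0.77 (exact permutation p = 0.0231, adjusted p = 0.276) and rho = 0.88 (exact permutation p = 0.0072, adjusted p = 0.241), with r = 0.90 without K15-SKO replicate 4 and MyoCre replicate 3. Nr3c1 with Ddit4 ran the other way, with r = -0.75 (exact permutation p = 0.0246, adjusted p = 0.276) and rho = -0.76 (exact permutation p = 0.0368, adjusted p = 0.331), and with r = -0.35 without K15-SKO replicate 3 and MyoCre replicate 4. These were 4 of the 8 pairs with an unadjusted Pearson p under 0.05. Taken as deviations from the mean of each genotype, r was 0.89, 0.83, 0.88 and -0.71 for these 4 pairs, in the order given.

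Low values gathered in K15-SKO replicate 3, which was the lowest K15-SKO library for 6 of the 10 genes, and in MyoCre replicate 4, the lowest MyoCre library for 7. After median-of-ratios scaling these numbers were 5 and 7. MyoCre replicate 4 was also the lowest MyoCre library for Klf15. K15-SKO replicate 3 was split, with the lowest Nr3c1 and Fbxo32 of all 8 libraries and the highest Ddit4. A further pair of receptor targets, named after their values were seen, were high in the same libraries as Ddit4. Sgk1, a kinase gene, had 42.3, 40.2, 87.1 and 31.2 FPKM in K15-SKO muscle, against 31.4, 41.9, 86.8 and 51.8 FPKM in MyoCre muscle. Per1, a target of the receptor and a clock gene, had 8.90, 6.99, 15.5 and 4.51 FPKM in K15-SKO muscle, against 7.01, 9.04, 14.01 and 6.67 FPKM in MyoCre muscle. Replicate 3 of each genotype was the highest for both genes. No correlation with these genes is given, because they were chosen for this likeness.

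**Figure D4:**
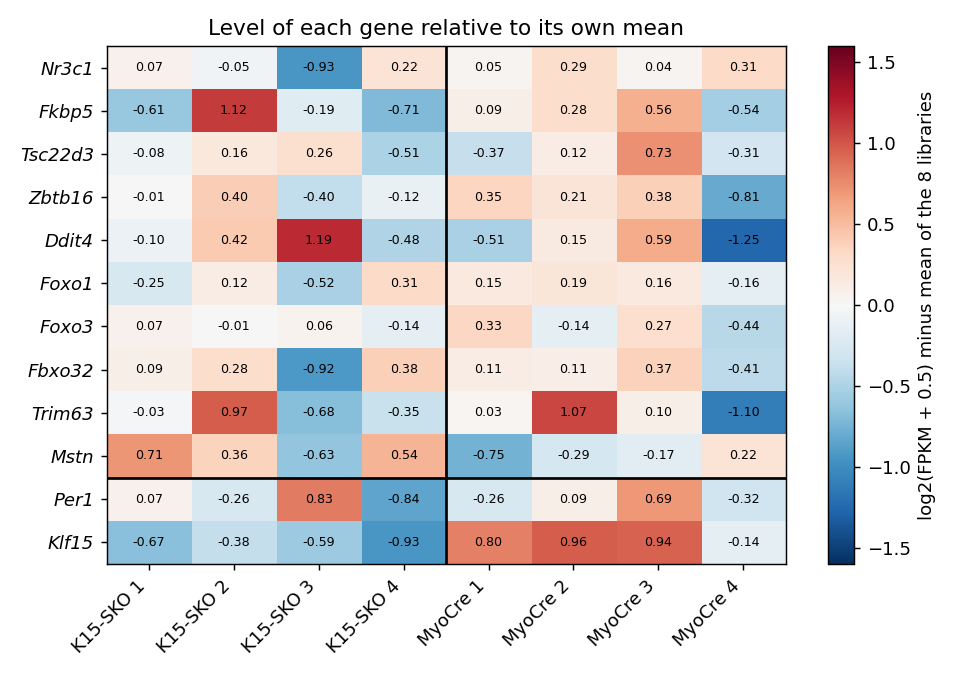
Level of each gene (rows) in each library (columns) as log2(FPKM + 0.5) minus the mean of the 8 libraries for that gene; red is above and blue below the mean, and Per1 and Klf15 are shown under the 10 genes. Of these rows only Klf15 separates the genotypes, Ddit4 runs from 1.19 in K15-SKO replicate 3 to -1.25 in MyoCre replicate 4, and Trim63 is highest in replicate 2 of both genotypes.

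The genes most like 3 of the members over the 8 libraries were taken from the genes tested with values in both genotypes, by Pearson r of log2 values, and are given as a description of a search over 12375 genes (12376 for Mstn). For Fkbp5 they were Echdc2 (r = 0.98), Mrpl27 (0.97) and Gm12918 (0.97), for Fbxo32 Kansl1 (0.99), Senp2 (0.98) and Rassf3 (0.98), and for Mstn Cd24a (0.98), Hoxd8 (0.97) and Pole4 (0.93).

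No related gene with values in both genotypes passed the threshold either. Of 151 tested genes in 7 lists of related genes, 0 with values in both genotypes passed the threshold in limma (4 of these 149, or 2.68%, had an unadjusted p under 0.05, beside 3.98% of all such genes), against 0.183% of all tested genes called lower and 0.367% called higher. The 46 genes called higher were all listed at 0 in the 4 MyoCre libraries. The lists hold 2 of them: the autophagy gene Map1lc3b had 46.4, 53.3, 36.9 and 39.0 FPKM, and the F-box gene Fbxo31 23.1, 25.4, 21.9 and 18.3 FPKM, in K15-SKO muscle. An exact 0 in this table can be a failed estimate, and no fold is given for them. Groups without overlap occurred in 4 listed genes with values, all lower in K15-SKO muscle, or 2.65% of the 151, beside 2.72% among all genes tested.

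Among 25 tested further targets of the receptor the median log2 fold change was -0.10, beside -0.12 for all genes. Glul, the glutamine synthetase, had 66.0, 73.3, 65.2 and 73.0 FPKM in K15-SKO muscle, against 108.6, 85.8, 118.4 and 74.2 FPKM in MyoCre muscle. All 4 K15-SKO values lay below all MyoCre values, and the log2 fold change of -0.45 (SE 0.19) missed the threshold (limma adjusted p = 0.948). Klf9, a Kruppel-like factor induced by the receptor, also showed no overlap, with 71.0, 72.3, 47.1 and 67.8 FPKM in K15-SKO muscle, against 80.2, 76.5, 85.7 and 75.8 FPKM in MyoCre muscle (log2 fold change -0.32, adjusted p = 0.957). The values of the list ran from -0.50 (Ctgf, a matrix growth factor gene, limma adjusted p = 0.957) to 0.49 (Txnip, which restrains glucose uptake, adjusted p = 0.957), and the phosphatase gene Dusp1 and the phosphatidate phosphatase gene Lpin1 had -0.39 each. In the receptor machinery, 21 tested genes with a median of -0.15, the smallest unadjusted p-values were those of the coactivator Tgfb1i1 (-0.40), the chaperones Hsp90aa1 (-0.44) and Hspa4 (-0.33), and the mineralocorticoid receptor gene Nr3c2 (-0.24). Hsd11b1, which regenerates active hormone, had 4.95 ± 1.07 FPKM in K15-SKO and 5.53 ± 0.85 FPKM in MyoCre muscle.

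The FoxO family and its regulators had a median of -0.10 over 20 tested genes, with the family member Foxo6 at -0.36, the deubiquitinase Usp7 at -0.27, the ligase Mdm2 at -0.23 and the methyltransferase Setd7 at -0.22. Akt2, the main AKT kinase gene of insulin action in muscle, had 34.5 ± 3.81 FPKM in K15-SKO and 37.0 ± 5.64 FPKM in MyoCre muscle. Other FoxO targets had a median of -0.13 over 29 genes with values in both genotypes, with cathepsin L (Ctsl) at -0.34, Klhl34 at -0.32, catalase (Cat) at -0.27 and the pyruvate dehydrogenase kinase gene Pdk4 at -0.36. Other ubiquitin genes of atrophy had a median of -0.15 over 24 genes with values, with the deubiquitinase Usp19 and the tripartite-motif gene Trim72 at -0.25 and the ligase Cblb at -0.23. The muscle F-box gene Fbxo40 had 95.1 ± 20.9 FPKM in K15-SKO and 103.9 ± 12.5 FPKM in MyoCre muscle.

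Among 22 tested genes of the myostatin and activin pathway the median was -0.13. The proprotein convertase gene Pcsk5 had 1.87, 2.09, 1.201 and 1.56 FPKM in K15-SKO muscle, against 2.57, 2.81, 2.90 and 2.17 FPKM in MyoCre muscle. The groups did not overlap and the log2 fold change of -0.53 (SE 0.19) missed the threshold (limma adjusted p = 0.825). Fstl1, a follistatin-like gene, stood at -0.50, the matrix proteoglycan gene Dcn at -0.38 and the protease gene Bmp1 at -0.22. Dcn and the other 7 markers of fibroblasts summed to 595.1 to 1057 FPKM in K15-SKO and 864.9 to 1301 FPKM in MyoCre muscle, with a median log2 fold change of -0.41. Tendon markers (median -0.43 over 7 genes, 121.0 to 236.7 FPKM summed in K15-SKO and 151.7 to 287.1 FPKM in MyoCre muscle) and macrophage markers (median -0.38 over 8 genes, 35.8 to 79.8 and 71.1 to 81.2 FPKM in the same order) also had negative medians. A list of immediate early genes that also holds the heat shock genes Hspa1a and Hspa1b had a median of -0.43 over 9 genes. It summed to 61.9 to 85.2 FPKM in K15-SKO and 68.7 to 115.0 FPKM in MyoCre muscle. Its 2 genes without overlap were Hspa1a (log2 fold change -0.99, limma adjusted p = 0.0568) and Hspa1b (-0.51, adjusted p = 0.804). Both were lower in K15-SKO muscle and missed the threshold. The immediate early genes tested all overlapped. Their log2 fold changes ran from -0.86 (Atf3, limma adjusted p = 0.854) to 0.11 (Ier2, adjusted p = 0.964), with Ier2 the only positive value. Adipocyte markers had a median of -0.41, with 1 of 6 above the all-gene median. Their sums were 254.1 to 498.1 FPKM in K15-SKO and 259.8 to 346.5 FPKM in MyoCre muscle, with the highest in K15-SKO replicate 3. Endothelial markers had a median of 0.25, with 8 of 8 above the all-gene median (130.8 to 183.3 FPKM in K15-SKO and 110.3 to 139.0 FPKM in MyoCre muscle). The largest list median was that of erythroid markers, 0.80, with 5 of 5 above the all-gene median (320.3 to 2034 FPKM in K15-SKO and 284.0 to 458.9 FPKM in MyoCre muscle). No marker with values in both genotypes passed the threshold. The part of these cell types, and of the immediate early and heat shock genes, in the pathway values was not tested. Follistatin (Fst), which binds myostatin, had 2.66 ± 0.61 FPKM in K15-SKO and 2.96 ± 0.67 FPKM in MyoCre muscle, and the receptor gene Acvr2b 2.09 ± 0.48 and 2.62 ± 0.76 FPKM in the same order. In the REDD1 and mTORC1 branch the median was -0.10 over 20 genes. Its smallest unadjusted p-values were those of Txnip, of Trp53 (-0.27, groups without overlap), of the mTORC1 inhibitor Tsc1 (-0.22) and of its target Rheb (-0.20). All of these missed the threshold. Because bulk RNA was measured, fewer cells of a type and less RNA per cell cannot be told apart.

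**Figure D5:**
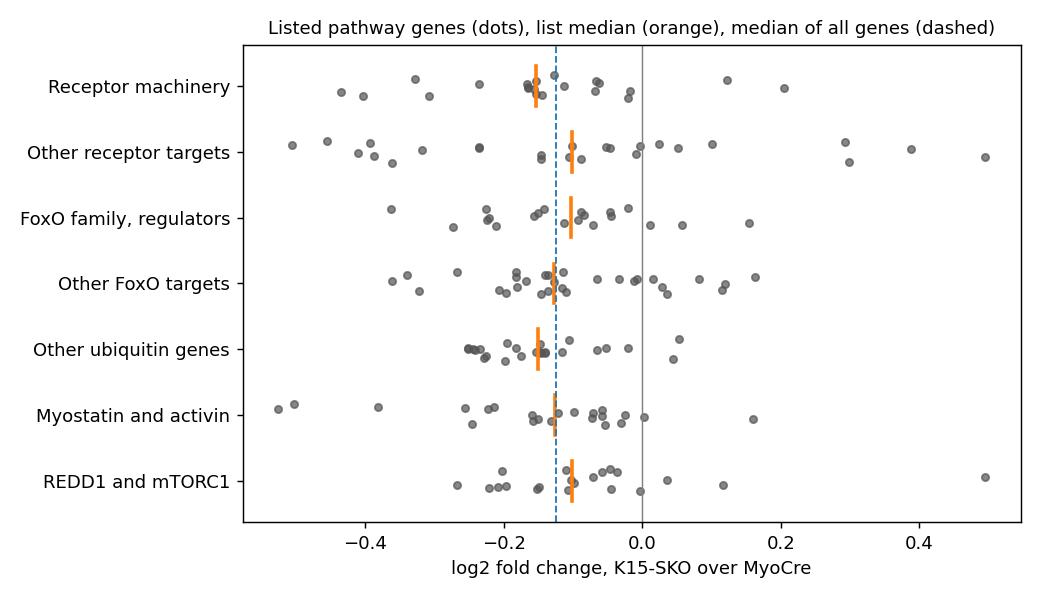
Log2 fold change, K15-SKO over MyoCre (horizontal axis), of each tested gene with values in both genotypes (dots) in 7 lists of related genes; orange bars are list medians and the dashed line is the median of all genes tested. List medians lie between -0.15 and -0.10, on both sides of -0.12.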

How the data were processed

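RNA-seq of 8 soleus samples (4 K15-SKO, 4 MyoCre) was used. The authors deposited 1 table of values taken here to be FPKM, a unit inferred from the values because the header names only samples; per the submitters' processing notes STAR, Cufflinks, Cuffdiff and mm10 were used, and no source used here gives the versions, annotation, strand setting or library scaling. The table holds 0 further value columns. Groups came from sample titles.

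With 0.5 added, FPKM was log2-transformed and fitted in limma 3.58.1 (R 4.3.3) with a mean-dependent trend and robust variances, on the 12535 genes averaging 1 FPKM or more, with Benjamini-Hochberg adjustment over all of them and a threshold of 0.05. Folds on this scale understate the change of low genes. The fit was tested on simulated data. Exact permutation tests between the genotypes used scipy 1.17.1. Correlations of pairs and their exact p-values were computed in numpy, with ranks and the adjustment from scipy. FPKM carries no depth: fragments were estimated by taking the most common low value of FPKM times length in 4820 longer genes with a single annotated transcript as 1 fragment. Positions are from GENCODE M21, which matched 23896 of the 24033 identifiers without their version.

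The 10 genes, the lists of related genes and the tests were chosen with earlier results of these data known. The text names all 10 genes, Klf15, up to 4 genes per list with the smallest unadjusted p, called genes and genes listed at 0. Further genes (Sgk1, Per1, Klf9, Ctgf, Hsd11b1, Akt2, Fbxo40, Fst, Acvr2b, Hspa1a, Hspa1b, Atf3, Ier2) were picked after their values were seen. Alternatives covered pseudocount, filter, scaling, variance options, weights, a replicate block and each library left out.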

Additional observations from a re-analysis of the deposited data

Results flagged for a closer look

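Of 74 groups of 4 libraries (37 named genes, 2 genotypes), 4 held a value apart from the other 3 by more than Dixon's 95% limit, where chance at 1 in 20 gives 3.7. Fkbp5 had 24.0 FPKM in K15-SKO replicate 2, against at most 9.34 in the other 3 K15-SKO libraries. Foxo1 had 3.81 FPKM in MyoCre replicate 4, against at least 4.85 in the other MyoCre libraries. Usp19 had 17.96 FPKM in MyoCre replicate 4, and Setd7 had 13.0 FPKM in K15-SKO replicate 3, each the lowest of its group.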

How the results depend on the processing

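The count of members past the threshold was 0 in all 21 alternatives. Over all genes 69 passed; 157 did with library weights (101 lower and 10 higher with values in both genotypes, against 23 and 0), 39 with a minimum mean of 5 FPKM, and 12 without genes at 0 throughout a genotype. Of genes with values, 14 or 15 passed with no filter, no robust estimation or any of the 3 rescalings, 13 when K15-SKO replicate 1 was left out, and 12 and 7 when MyoCre replicates 1 and 3 were. Klf15 kept its direction in all 21 and passed in 8. Its log2 fold change did not pass at -1.28 with no filter (adjusted p = 0.129), with no robust estimation (0.0879) or without genes at 0 throughout a genotype (0.0943), at -1.15 with median-of-ratios scaling (0.0946) or quantile normalization (0.099), or at -1.16 with upper-quartile scaling (0.0786); leaving out 1 library gave -1.55 to -1.18. Signs of small log2 fold changes turned, none of them called. With median-of-ratios scaling Fbxo32 stood at 0.0466, Foxo3 at 0.12, Trim63 at 0.0914, Tsc22d3 at 0.0545 and Zbtb16 at 0.0714; with upper-quartile scaling, in the same order of genes, at 0.0342, 0.11, 0.0790, 0.0422 and 0.0592; with quantile normalization at 0.0288, 0.12, 0.0543, 0.0446 and 0.0642. Library weights put Fbxo32 at 0.0051. Median-of-ratios scaling without K15-SKO replicate 3, added after the data were seen, gave Klf15 -1.25 (adjusted p = 0.124), Fbxo32 0.25, Foxo1 0.0206, Foxo3 0.0155, Trim63 0.22 and Zbtb16 0.11. Over the fits that leave out 1 library, Fbxo32 ranged from -0.24 to 0.20, Fkbp5 from -0.60 to 0.00793, Foxo3 from -0.16 to 0.10, Trim63 from -0.42 to 0.30, Tsc22d3 from -0.22 to 0.15, Zbtb16 from -0.35 to 0.0571, Foxo1 from -0.30 to -0.03, Nr3c1 from -0.47 to -0.09, Ddit4 from 0.18 to 0.80 and Mstn from 0.32 to 0.78. Nr3c1 stayed negative and Ddit4 and Mstn positive in every alternative. The rescalings moved the median of all genes from -0.12 to 0.00 or -0.01 and carried these genes with it: the 5 lay 0.03 to 0.11 above that median before and 0.04 to 0.13 above it after. For the fits that leave out a library the cause was not tested. Same-numbered libraries of the genotypes had deviations correlated at 0.10, 0.23, 0.00 and 0.28; the last and the second were the highest of the 16 cross-genotype values, but replicate 3 showed none and not every library correlated best with its own number, so the numbers were not taken to pair animals; the fit with a replicate block called 78 genes in place of 69, left Klf15 at -1.28 and called 0 members, with Ddit4 at an adjusted p of 0.535. Depth limits Mstn most.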
